A study of Mus musculus with 6 samples.

Results

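Five-factor regions are places on the autosomes where Tgif1, Tgif2, Hdac1, Nanog and Smad3 each had at least 1 peak in the deposited ChIP-seq lists. Peaks of the 5 lists were merged wherever they overlapped by at least 1 bp on chromosomes 1 to 19 of the mm9 build. Of 32551 merged regions, 662 held all 5 factors, or 2.03%. The regions were chosen by the measured peaks themselves, a peak being present in every list, so their number is a description.

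The lists came from J1 mouse embryonic stem cells containing BirA, the bacterial enzyme that biotinylates a tagged protein, cultivated in serum with leukemia inhibitory factor. The groups were Tgif1, Hdac1 and Smad3, each precipitated with an antibody, and Tgif2 and Nanog, each pulled down with streptavidin beads. The BirA mock library was not analysed here. Each factor had 1 library and 1 list, all from the same J1 line, so no value has a replicate check and no test over samples could be made. Intervals are 95% intervals over regions, Wilson for shares and order-statistic for medians. They cover counting error only, and regions of a library are not replicates.

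Enhancers of embryonic stem cells often gather many regulators over a short stretch of DNA. Nanog is a homeodomain activator and repressor of the pluripotency network. Smad3 is an effector of TGF-beta, Activin and Nodal receptors that enters the nucleus after phosphorylation and binds DNA beside partner factors. Tgif1 and its paralog Tgif2 are TALE-class homeodomain proteins that can act as Smad corepressors. Hdac1 is a lysine deacetylase without sequence-specific DNA binding of its own, brought to chromatin by corepressor complexes.

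Smad3 had the shortest list, and five-factor regions held most of it. They took up 691 of its 1199 autosomal peaks, or 57.6% (54.8 to 60.4). They took up 814 of 16833 Nanog peaks (4.84%), 755 of 16273 Tgif1 peaks (4.64%), 733 of 16398 Hdac1 peaks (4.47%) and 759 of 18976 Tgif2 peaks. With only the peaks at or above the median fold enrichment of each list, 176 five-factor regions remained, and with those at or above the median tags, 335. Across chromosomes, five-factor regions made up from 1.27% of the merged regions on chromosome 16 (12 of 945) to 2.60% on chromosome 14 (33 of 1267). The intervals of these extremes, 0.728 to 2.21% and 1.86 to 3.64%, overlapped.

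Most five-factor regions were compact. Of the 662, 482 had exactly 1 peak per factor, or 72.8% (69.3 to 76.1), 111 had 6 or 7 peaks and 69 had 8 or more. Several Nanog peaks were present in 18.3% of regions, several Tgif2 peaks in 12.5%, several Tgif1 peaks in 11.9%, several Hdac1 peaks in 9.21% and several Smad3 peaks in 3.93%. The median region was 1589 bp wide (1500 to 1656), with a range of 687 to 10057 bp. The other merged regions had a median of 940 bp, and a union of 5 peaks is wider by construction. A stretch covered by all 5 factors existed in 646 regions, and the median common stretch was 648 bp (626 to 666). In the other 16 regions the peaks were joined only as a chain.

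The rule turned on small overlaps in few places. The smallest overlap that held a region together had a median of 645 bp and was under 50 bp in 19 regions. The tightest cases, chr17:35640568-35644374, chr10:62354917-62361832 and chr2:165792817-165795805, were each joined by 6 bp at their weakest point. Just outside the rule were regions with Tgif1, Tgif2, Hdac1 and Nanog but no Smad3. None of these 3371 four-factor regions lay within 100 bp of a Smad3 peak and 34 lay within 1000 bp. The nearest were chr2:109781994-109782882, 268 bp from a Smad3 peak, chr11:77705179-77708106 at 271 bp and chr11:8485659-8488019 at 299 bp.

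Inside the five-factor regions the 5 summits lay close together. Where a factor had several peaks in a region, the peak with the most tags gave its summit. The spread, the distance from the leftmost to the rightmost summit, had a median of 146.5 bp (133 to 158) and a range of 11 to 4892 bp. All 5 summits fell within 100 bp in 228 regions (34.4%), within 200 bp in 423 (63.9%) and within 1000 bp in 602 (90.9%). In 542 regions all 5 summits lay inside all 5 of the peaks. Regions with exactly 1 peak per factor had a median spread of 129 bp (118 to 143), and those with 8 or more peaks had a median of 1107 bp (643 to 1458).

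The shortest distances were those within a Nanog and Smad3 pair and within a Tgif pair. Nanog and Smad3 summits had a median distance of 32 bp (29 to 36) and Tgif1 and Tgif2 summits one of 39 bp (34 to 43), with overlapping intervals. Hdac1 lay 47 bp (41 to 54) from Nanog and 48 bp (44 to 54) from Smad3, compared with 57.5 bp (51 to 65) from Tgif2 and 59 bp (54 to 67) from Tgif1. Tgif1 was 55 bp (49 to 61) from Smad3 and 55.5 bp (50 to 65) from Nanog. Tgif2 had the longest medians, 70 bp to Nanog (61 to 79) and 71 bp to Smad3 (63 to 79). The intervals of the pairs between 47 and 59 bp overlapped or met, so these medians did not resolve their order. All distances come from the same regions, which these intervals do not take into account.

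**Figure D1:**
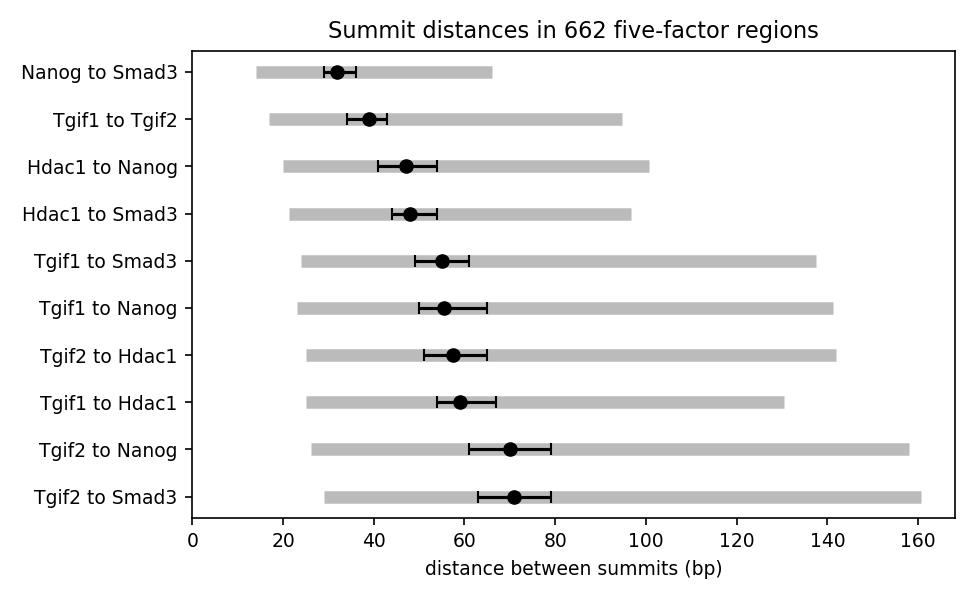
Distance in bp between the summits of each pair of factors in the 662 five-factor regions, ordered by the median. Points are medians with 95% order-statistic intervals and grey bars span the middle 50% of regions. Nanog to Smad3 (32 bp) and Tgif1 to Tgif2 (39 bp) stand at the short end, and Tgif2 to Smad3 (71 bp) at the long end.

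The order of the summits along the DNA was read from the same summits as the distances. It describes the same pairing again and adds no separate support. In 349 regions, or 52.7% (48.9 to 56.5), both Tgif summits lay on the same side of both the Nanog and the Smad3 summit. The other ways of splitting these 4 factors into pairs were less frequent, with Tgif1 and Nanog apart from Tgif2 and Smad3 in 161 regions (24.3%) and Tgif1 and Smad3 apart from Tgif2 and Nanog in 144 (21.8%). Without a preference the splits would be equally frequent. Among the 482 regions with 1 peak per factor the counts were 243, 127 and 109. With peak midpoints in place of summits they were 265, 197 and 197 over all 662 regions. Where the Tgif summits were set apart, the gap to the other pair had a median of 41 bp (34 to 52). Hdac1 lay among or beyond the Nanog and Smad3 summits in 158 of these 349 regions (45.3%, 40.1 to 50.5). It lay between the pairs in 99 (28.4%) and among or beyond the Tgif summits in 90 (25.8%, 21.5 to 30.6). Without a preference, the Nanog and Smad3 side and the Tgif side would be equally frequent, and the place between the pairs less frequent.

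Tgif2 was most often the outermost summit. It lay alone at an end of the order in 327 regions, or 49.4% (45.6 to 53.2), compared with 40.3% (36.7 to 44.1) for Hdac1, 37.8% for Tgif1, 34.9% (31.4 to 38.6) for Smad3 and 34.3% for Nanog. The middle place was held by Nanog in 23.6% of regions (20.5 to 26.9), by Hdac1 in 22.7%, by Smad3 in 22.2%, by Tgif1 in 15.6% and by Tgif2 in 12.7% (10.4 to 15.4). Without a preference each factor would hold an end, or the middle, equally often. The Hdac1 share at an end was near that level. From the median of the other summits, Nanog lay 41 bp away (36.5 to 44.5), Smad3 42 bp, Hdac1 45 bp, Tgif1 48 bp and Tgif2 55.2 bp (47.5 to 64). No fixed order prevailed. When an order and its mirror image are counted together, all 60 orders occurred among the 619 regions without tied summits. The most frequent, Hdac1, Smad3, Nanog, Tgif1 and Tgif2, accounted for 28 regions, or 4.52%.

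**Figure D2:**
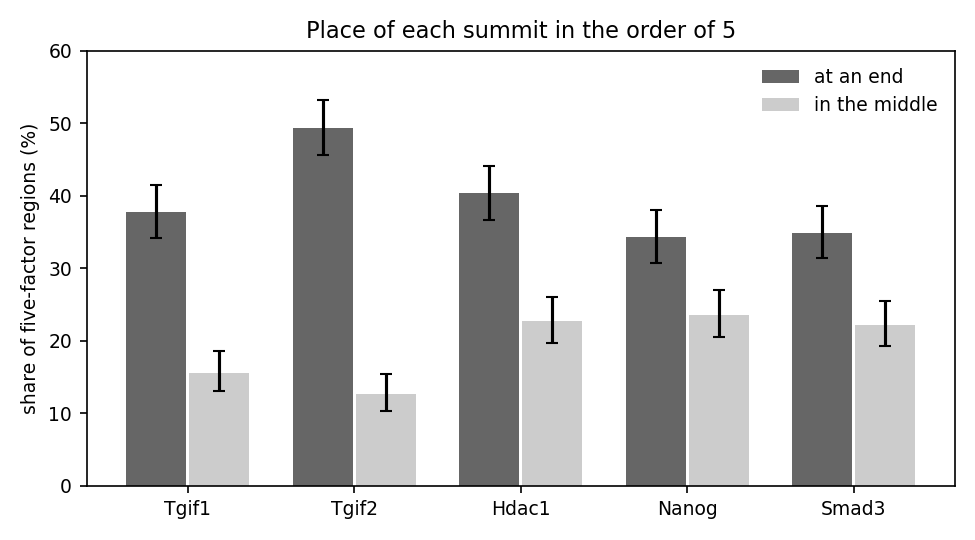
Share of the 662 five-factor regions in which each factor's summit was alone at an end of the 5 summits or alone in the middle place, in percent. Error bars are 95% Wilson intervals. Tgif2 was at an end in 49.4% and in the middle in 12.7%, and Nanog was at an end in 34.3% and in the middle in 23.6%.

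Summit tightness was set beside that of the four-factor regions without Smad3, the class most like the five-factor one. Over the 4 factors that both classes share, the spread had a median of 128 bp (115 to 140) in five-factor regions and 163 bp (153 to 174) in four-factor regions. The 4 summits lay within 200 bp in 66.8% (63.1 to 70.2) and in 54.8% (53.1 to 56.5). Within 500 bp the shares were 82.6% (79.6 to 85.3) and 75.3% (73.9 to 76.8). The classes were closer at shorter limits, with overlapping intervals. Within 100 bp the shares were 39.7% (36.1 to 43.5) and 35.7% (34.1 to 37.4), and within 50 bp 14.2% and 13.3%. Tgif1 and Nanog summits were 55.5 bp (50 to 65) apart in five-factor regions and 71 bp (66 to 75) in four-factor regions, while Tgif1 and Tgif2 summits were 39 bp (34 to 43) and 42 bp (39 to 44) apart. Tgif1 and Hdac1 summits were 59 bp (54 to 67) and 56 bp (54 to 60) apart, the other way round, with overlapping intervals. Nanog tags moved with the difference in spread. Within bins of Nanog tags, the direction was not the same throughout. The bins match the classes only roughly, since the highest one ran from 106 to 1349 Nanog tags. In the highest of 5 bins of Nanog tags the spread of the 4 summits was 132 bp (116 to 153) in 423 five-factor regions and 124 bp (104 to 141) in 383 four-factor regions. In the next lower bin it was 113.5 bp in five-factor and 132 bp in four-factor regions. The middle bin had 131 bp and 159 bp, and the one below it 115.5 bp and 171 bp. The five-factor median was thus the smaller in these 3 bins, with overlapping intervals. In the lowest bin it was 824.5 bp in only 4 five-factor regions and 241 bp in 803 four-factor regions.

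Nanog peaks were the strongest members of five-factor regions relative to their own list. Tags and fold enrichment are the authors' values per peak and are compared only within a list, as a description. The strongest Nanog peak of a region held a median of 136 tags (127 to 146), with a range of 16 to 1349. Nanog peaks elsewhere had a median of 28 tags (28 to 29). It was in the top 10% of the Nanog list by tags in 469 of 662 regions, or 70.8%, against 10.1% of all autosomal Nanog peaks. By fold enrichment 43.8% reached the top 10%, against 9.79% of all Nanog peaks. The median Nanog fold was 58.0 in five-factor regions (53.6 to 63.0), with 22.7 in the other Nanog peaks. Nanog peaks were also wider in five-factor regions, with medians of 1019.5 and 625 bp, and held more tags per kb, with medians of 126 and 47.9.

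Hdac1 came next. Its strongest peak in a five-factor region had a median of 85 tags (82 to 88), with 46 in the other Hdac1 peaks, and was in the top 10% by tags in 310 regions (46.8%), against 9.9% of the list. By fold 21.6% were in the top 10%, against 9.95%. The median Hdac1 peak was 1286.5 bp wide in five-factor regions and 1030 bp elsewhere.

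The Tgif proteins were nearer to the rest of their lists than Nanog was. The Tgif1 peak held a median of 79 tags (75 to 83) in five-factor regions and 53 elsewhere, and was in the top 10% by tags in 27.8% of regions, against 10% of the list. The Tgif2 peak held 82 tags (77 to 87) in five-factor regions and 57 elsewhere, with 24.2% of regions in the top 10%, against 10.1%. By fold the Tgif2 share in the top 10% was 9.52%, against 10% of the list, which is near the background. By fold Tgif1 reached the top 10% in 15.4% of regions, against 9.95%. The Smad3 peak held 32 tags (30 to 33) in five-factor regions, in a range of 12 to 539, and 20 in the other Smad3 peaks. It was in the top 10% of the Smad3 list by tags in 14.0% of regions, against 10.2%, and by fold in 12.1%, against 10.1%. Only 122 Smad3 peaks were in the top 10% by tags, far fewer than the 662 regions, so the length of the list caps this share and it cannot be ranked against those of the other factors. The median Smad3 fold was 9.77 in five-factor regions and 9.45 elsewhere. By tags, Nanog was at or above the list median in 98.3% of regions (background 49.9%), Hdac1 in 93.1% (49.6%), Tgif1 in 77.6% (50.8%), Tgif2 in 72.5% (50%) and Smad3 in 63.4% (50%). By fold the shares were 89.1% for Nanog (49.3%), 69.3% for Hdac1 (50.1%), 66.0% for Tgif1 (49.8%), 55.3% for Tgif2 (49.9%) and 52.1% for Smad3 (49.8%). Where a factor had several peaks in a region its strongest was used, which raises these values, and the rule used the same lists, so nothing is read from the differences. Peak width was also higher in five-factor regions, but only slightly for Tgif1, with medians of 979.5 and 932 bp elsewhere. For Tgif2 the medians were 1042.5 and 941 bp. Tags per kb were higher too, with medians of 78.0 and 57.3 for Tgif1 and 74.4 and 60.6 for Tgif2. For Hdac1 they were 62.4 and 44.6, and for Smad3 41.8 and 34.1. The part of width in the differences in tags was not tested. Across the 662 regions, tags followed width with a rank correlation of 0.60 for Nanog and of 0.79 to 0.82 for the other factors.

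**Figure D3:**
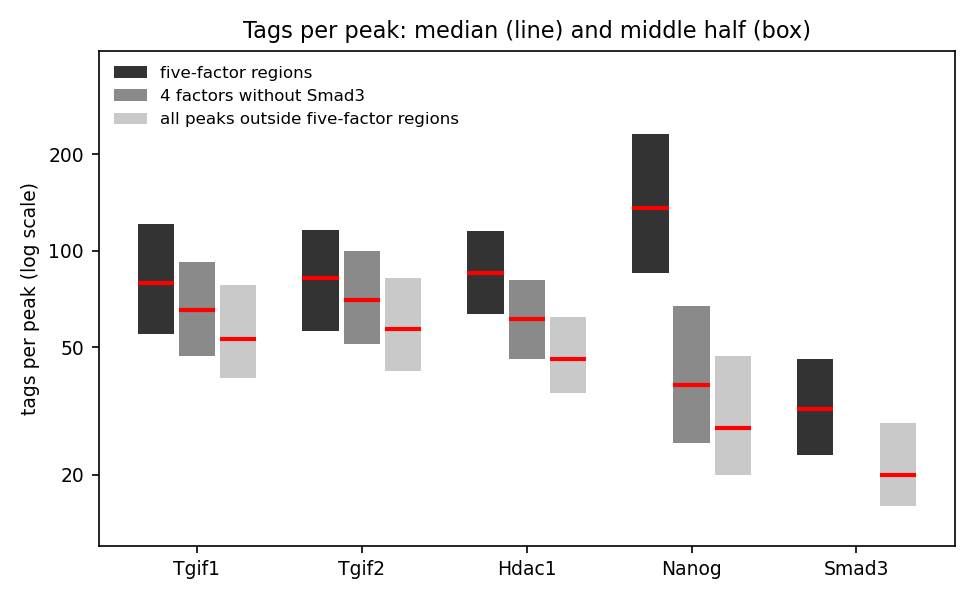
Tags per peak on a log scale for each factor in five-factor regions (strongest peak of each region, n = 662), in four-factor regions without Smad3 (n = 3371) and in all other peaks of the same list. Boxes span the middle 50% and red lines mark the medians. The Nanog box of the five-factor regions (median 136 tags) lies above those of the four-factor regions (38) and of the other peaks (28).

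Within a region Nanog usually ranked highest in its list. It had the highest within-list tag percentile of the 5 factors in 401 regions (60.6%), followed by Hdac1 in 157 (23.7%). Smad3 had the lowest percentile in 325 regions (49.1%) and Tgif2 in 178 (26.9%). Since five-factor regions hold 57.6% of the Smad3 list, Smad3 percentiles are held near the middle of that list by construction, and its low place is no finding. All 5 factors were in the top 10% by tags in 34 regions, and none was in 130. Seen from the lists, 65 of the 100 Nanog peaks with the most tags lay in five-factor regions, compared with 33 of the Tgif1, 30 of the Hdac1 and 15 of the Tgif2 peaks. Ranked by fold instead, 33 Nanog, 9 Tgif1, 5 Hdac1 and 4 Tgif2 peaks did so. Over the whole lists the shares were 4.84% for Nanog, 4.64% for Tgif1 and 4.47% for Hdac1, with 759 of 18976 for Tgif2. Among the 100 highest folds the Hdac1 and Tgif2 counts were thus near their lists, with a wide interval for Hdac1 (2.15 to 11.2%). Over 5 bins of the whole Hdac1 list by fold, the share was 2.35% in the lowest and 7.72% (6.85 to 8.68) in the highest. For Tgif2 it was 3.24% and 3.95%. For Smad3 the count was 79 of 100 (70.0 to 85.8%) when peaks were ranked on tags and 68 of 100 (58.3 to 76.3%) on fold, beside 57.6% of the whole Smad3 list. Over 5 bins of the Smad3 list by fold there was no steady rise. From lowest to highest the shares were 64.2%, 47.9%, 48.8%, 60.8% and 66.5%. By tags the share rose from 25.4% in the lowest bin to 78.7% in the highest.

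Among the 4033 regions with Tgif1, Tgif2, Hdac1 and Nanog, 16.4% also held Smad3, and this share differed most between bins of Nanog tags. In 5 bins of rising Nanog tags it was 0.496% (4 of 807), 2.23%, 7.07%, 19.8% and 52.5% (423 of 806, 49.0 to 55.9). Over bins of Hdac1 tags it ran from 4.96% to 32.8%, over bins of Tgif1 tags from 10.8% to 25.8% and over bins of Tgif2 tags from 14.1% to 21.2%. By fold enrichment the share ran from 1.12% to 43.5% over Nanog bins and from 11.3% to 25.7% over Hdac1 bins. It showed no steady rise over Tgif2 bins, with 16.98% in the lowest and 15.5% in the highest. The four-factor regions had a median of 38 Nanog tags (37 to 40), so five-factor regions stood at 3.58 times their median. For Hdac1 the ratio of medians was 1.39, for Tgif1 1.22 and for Tgif2 1.17.

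In the highest bin of Nanog tags the medians of the other factors were higher in the five-factor regions, with intervals that did not overlap. That bin ran from 106 to 1349 Nanog tags, and whether the classes still differed in Nanog tags within it was not tested. Hdac1 had a median of 94 tags (90 to 99) in five-factor and 75 (71 to 78) in four-factor regions, Tgif1 had 87 (82 to 94) and 71 (68 to 76), and Tgif2 had 91 (85 to 95) and 73 (69 to 78). In the next lower bin Tgif1 had 70 tags in both classes. The medians there were 74 and 67 for Hdac1 and 72.5 and 68 for Tgif2, with overlapping intervals. In the middle bin, with 57 five-factor regions, the Tgif medians were lower in five-factor than in four-factor regions, at 55 and 65 tags for Tgif1 and 61 and 70 for Tgif2, while Hdac1 had 68 and 62. In the bin below, with 18 five-factor regions, all 3 were lower, at 48 and 63 for Tgif1, 64 and 67 for Tgif2 and 54.5 and 56 for Hdac1. The lowest bin held 4 five-factor regions, with 126.5 and 61 tags for Tgif1, 143 and 72 for Tgif2 and 120 and 54 for Hdac1.

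**Figure D4:**
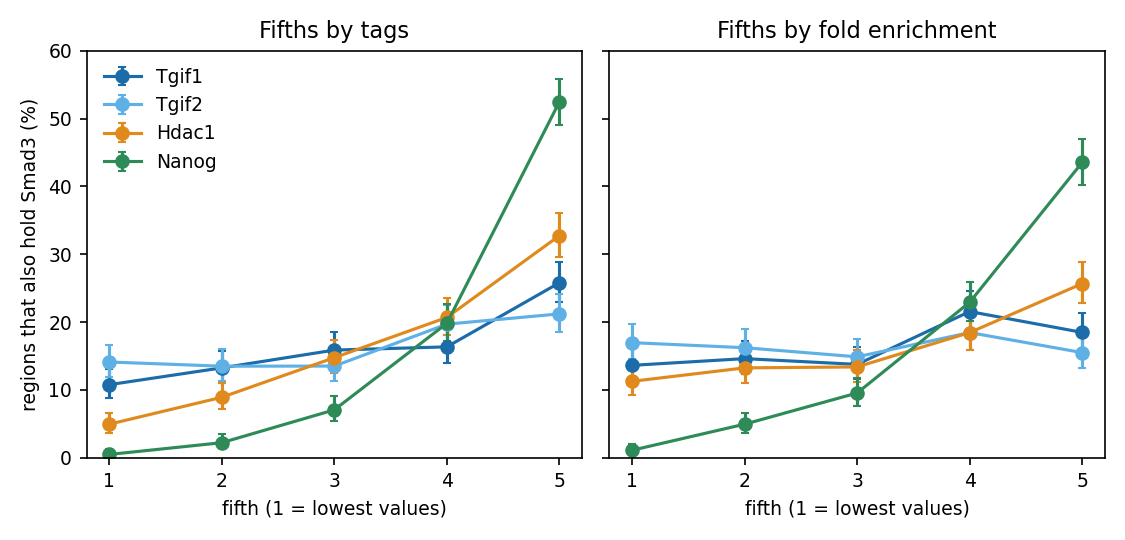
Share in percent of the 4033 regions with Tgif1, Tgif2, Hdac1 and Nanog that also held a Smad3 peak, in 5 bins of rising tags (left) or fold enrichment (right) of each factor. Error bars are 95% Wilson intervals. Over Nanog tags the share runs from 0.496% to 52.5%, and over Tgif2 fold from 16.98% to 15.5%.

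Across the 662 regions, the tags of the Tgif proteins varied together. The rank correlation between Tgif1 and Tgif2 tags was 0.79, and Hdac1 followed Tgif1 and Tgif2 with 0.62 each. Nanog tags followed Smad3 tags with 0.57, Hdac1 with 0.36, Tgif1 with 0.31 and Tgif2 with 0.27. Smad3 tags had correlations of 0.48 with Hdac1, 0.46 with Tgif1 and 0.38 with Tgif2. By fold enrichment the values were lower, with 0.74 for Tgif1 and Tgif2, 0.32 for Nanog and Smad3 and 0.12 for Tgif1 and Nanog. Hdac1 had 0.50 with Tgif1 and 0.56 with Tgif2 by fold. By tags per kb the values were 0.71 for Tgif1 and Tgif2 and 0.49 for Nanog and Smad3. Hdac1 had only 0.36 with each Tgif protein by tags per kb, below Nanog with Smad3, where by tags it was above. The points share peak width and the same cells, and the correlations are descriptions. The spread of the summits was nearly unrelated to tags in regions with 1 peak per factor, from 0.03 for Nanog to 0.16 for Hdac1.

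The 10 leading regions, by the mean within-list percentile of tags, included narrow and broad places. The leading region, chr18:40467355-40468348, was 993 bp wide and held 1365 Tgif1, 647 Tgif2, 748 Hdac1, 1349 Nanog and 539 Smad3 tags. Its tags per kb were the highest of the 662 regions for all 5 factors, with 3289 for Tgif1 where the next region had 337. Its fold enrichments were 14.9, 9.15, 17.7, 28.9 and 13.5 in the same order of factors, and the mock level there was not analysed here. The next, chr1:120971228-120974479, had 295 Tgif1, 301 Tgif2, 267 Hdac1, 815 Nanog and 178 Smad3 tags, a Nanog fold of 192 and a spread of 54 bp. Its common stretch of 2325 bp was the longest of all.

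The others were chr3:8244565-8246836, chr9:45156346-45158767, chr13:66091521-66092725, chr9:110846452-110851119, chr10:67598851-67601433, chr1:64777760-64785937, chr6:122289150-122291881 and chr1:183959757-183961920. At chr3:8244565-8246836, with 338 Smad3 and 324 Tgif1 tags, the Smad3 fold was 5.64. At chr9:110846452-110851119 the Tgif1 summit came before Tgif2 at 31 bp, Hdac1 at 85 bp, Smad3 at 103 bp and Nanog at 108 bp, an order with the Tgif pair on the left and Hdac1 in the middle. At chr1:183959757-183961920 Tgif1 and Tgif2 shared a summit base, with Hdac1 at 80 bp, Smad3 at 105 bp and Nanog at 110 bp. Not all leading regions had the Tgif pair apart. At chr1:120971228-120974479 Nanog and Smad3 lay 22 and 25 bp from Tgif1, with Tgif2 beyond them at 54 bp. At chr10:67598851-67601433, counted from Hdac1, Nanog at 915 bp and Smad3 at 939 bp lay between Tgif1 at 886 bp and Tgif2 at 1126 bp. High tags did not always go with high fold. Of these 10 regions, 9 had a Nanog fold at or above the list median, 7 a Tgif1 and 7 a Smad3 fold, but 3 a Tgif2 and 3 an Hdac1 fold.

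**Figure D5:**
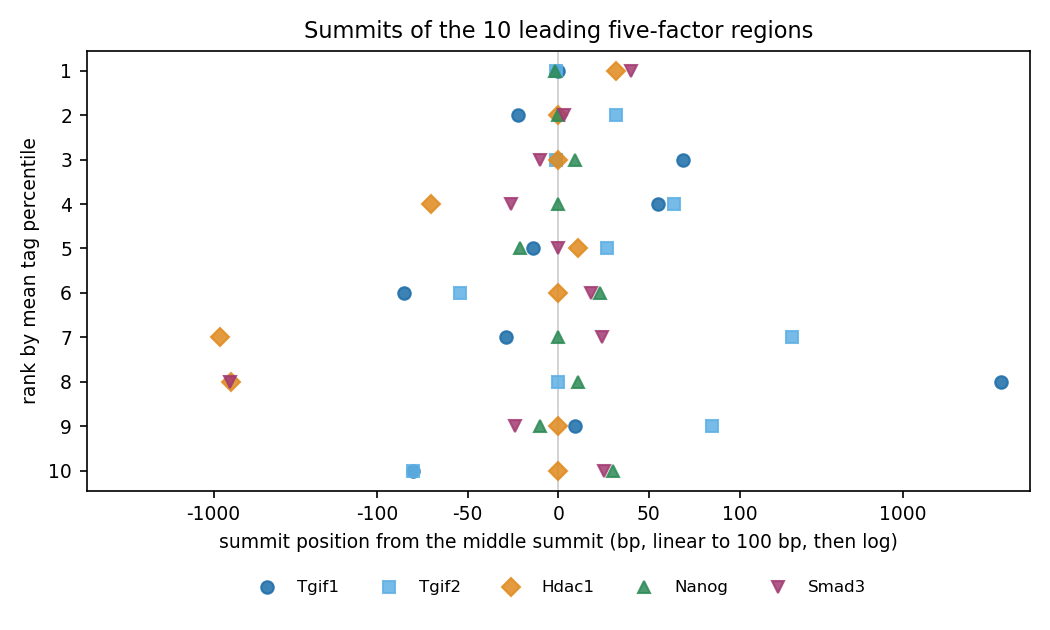
Summit positions of the 5 factors in the 10 five-factor regions with the highest mean tag percentile, in bp from the middle summit of each region. The scale is linear to 100 bp and logarithmic beyond. In 8 of the 10 regions the summits lie within 134 bp of each other, and the exceptions, ranks 7 and 8, have spreads of 1126 and 4823 bp.

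The tightest region was chr13:66412593-66413514, where 5 summits fell within 11 bp, at 66 Tgif1, 100 Tgif2, 79 Hdac1, 89 Nanog and 33 Smad3 tags. It was followed by chr15:102070599-102071717 with 16 bp, chr2:30633558-30635558 with 18 bp, chr8:114415576-114416512 with 19 bp and chr13:35829793-35830641 with 23 bp. These were not the strongest places, since chr8:114415576-114416512 held 39 Nanog and 19 Smad3 tags.

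Summits were farthest apart, among regions with 1 peak per factor, at chr14:100683373-100686027, with a spread of 1863 bp and the Nanog summit outermost. At chr8:93351613-93354031 Smad3, Hdac1 and Nanog lay within 21 bp of each other, while Tgif1 and Tgif2 stood 1285 and 1307 bp from Smad3. At chr4:140195021-140197476 the spread was 1303 bp, with Tgif2 at the left end, Smad3, Nanog and Tgif1 at 742, 743 and 790 bp from it, and Hdac1 at the right end. At chr10:95353684-95355495 Tgif1, Tgif2 and Nanog fell within 30 bp and Smad3 and Hdac1 lay 1068 and 1093 bp from Tgif1. At chr10:67598851-67601433 Hdac1 was 886 bp from the nearest of the other summits.

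The widest regions were chains of many peaks. The widest, chr10:80599503-80609560, spanned 10057 bp with 12 peaks, and its strongest summits still lay within 110 bp. The 4 that followed were chr1:64777760-64785937 (13 peaks), chr12:12943774-12951161 (14 peaks), chr15:88691753-88698949 (12 peaks) and chr10:62354917-62361832, which held the most peaks, 16, among them 4 of Nanog and 4 of Smad3.

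Five-factor regions were usually alone, with some close groups. Another five-factor region lay within 25 kb, centre to centre, of 119 regions, or 18.0% (15.2 to 21.1). The median distance to the nearest was 431 kb and the shortest was 1631.5 bp. Chained at 25 kb, 543 regions stood alone, 38 groups had 2 members, 10 had 3, 2 had 4 and 1 had 5. Merged regions of any kind were more frequent around them. A mean of 3.71 other merged regions lay within 25 kb of a five-factor region, with 3.02 around four-factor regions and 2.26 around all merged regions. A four-factor region lay within 25 kb of 38.5% (34.9 to 42.3) of five-factor regions, and another four-factor region within 25 kb of 33.1% (31.5 to 34.7) of four-factor regions.

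The largest group, chr12:87810562-87846271, held 5 five-factor regions and 8 other merged regions in 35.7 kb. From left to right its regions had 155, 103, 213, 545 and 190 Nanog tags and 23, 32, 55, 176 and 68 Smad3 tags. The region chr12:87841996-87843876 had the most of both, with a Nanog fold of 165 and a Smad3 fold of 35.7, while its 107 Tgif1 tags were below the 196 of the leftmost region. At chr7:3192815-3214285, 4 regions lay within 21.5 kb, with 122, 135, 300 and 129 Nanog tags and 36, 69, 116 and 55 Smad3 tags. There too the region with the most Nanog tags had the most Smad3 tags. The group chr13:44800254-44847770 held 4 regions in 47.5 kb, and from left to right Nanog tags were 402, 268, 191 and 140 and Smad3 tags 107, 82, 17 and 21. Its rightmost region had the fewest Nanog tags and the highest fold for Tgif1 (42.7), Tgif2 (46.8) and Hdac1 (28.5) of the group.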

How the data were processed

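The labels describe 6 libraries, and the peak lists of 5 were used. Per the submitters' processing notes, BWA 0.5.9-r16, MACS and mm9 were used. For settings, control, threshold and library depth nothing was found, so these are not given in the sources used here. The deposited lists have no header. Column 4 was read from its values as fold enrichment, a ratio by the authors' peak caller, and column 5 as the count of tags per peak in the deposited lists. Coordinates are printed as deposited, and whether starts count from 0 or 1 is not stated.

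Percentiles were taken over each whole list, and peaks on other chromosomes were then left out. Peaks were merged at 1 bp or more, and bedtools 2.31.1 gave the same 32551 and 662 regions. No peaks of a list overlapped each other. The merging and summit steps were tested on simulated data with exactly 1 peak per factor in each five-factor place. Regions with several peaks of a factor were not part of that test. Regions are named by rule: 10 by mean tag percentile, 5 each by smallest spread, largest spread with 1 peak per factor and width, the 3 largest groups, and 3 each just inside and outside the rule. Members, lists and descriptions were chosen with earlier results of these data known. The split of summits into pairs, the orders, the bins of tags and the counts among the 100 strongest peaks were chosen after their values could be seen. Genes and sequence are not given, because annotation of mm9 was not used here. Python 3.11.15, NumPy 2.4.6, pandas 2.3.3, SciPy 1.17.1 and matplotlib 3.10.9 were used.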

Additional observations from a re-analysis of the deposited data

How the results depend on the processing

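No paired analysis was possible because each factor had 1 library. Of 77 alternative values, 58 stayed within the 95% interval of the reported value, or within 1.5 times for the number of regions, and 19 did not. Leaving out chromosome 1, or the regions with high tags and low fold in 3 or more factors, both chosen after seeing the data, moved none beyond these limits.

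When each list was limited to its upper part by fold, from the median, the number of regions was 176, the median width 1489 bp, the median spread 107.5 bp and the share with a five-factor neighbour within 25 kb 4.55%. Limited likewise by tags, the number was 335, the width 1820 bp, the spread 168 bp, and the median tags 187 for Nanog and 41 for Smad3. Joining peaks up to 500 bp apart gave a width of 1806 bp and a spread of 165 bp. Windows reaching 250 bp to either side of each summit gave 621 bp and 121 bp, and exactly 1 peak per factor gave 1344.5 bp and 129 bp. With midpoints in place of summits the spread was 287 bp and Smad3 was outermost in 40.2% of regions. A neighbour lay within 10 kb of 11.6% and within 50 kb of 22.4% of regions. The cause of these moves was not tested. Library depth is unknown, 1 library stood for each factor, and the mock library was not analysed here, so neither replicate error nor the background at a place could be given.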

Other observations

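On chromosome 1, the 52 five-factor regions had higher median tags than the 610 on the other autosomes in all 5 lists. The medians were 255 (175 to 291) on chromosome 1 and 131 (124 to 141) elsewhere for Nanog, 134.5 and 79.5 for Tgif2, 117.5 and 77.5 for Tgif1, 117 and 84 for Hdac1, and 41 and 31.5 for Smad3. Over whole lists the medians on chromosome 1 and elsewhere were 32 and 29 for Nanog, 67 and 57 for Tgif2, 62 and 54 for Tgif1, 54 and 47 for Hdac1, and 37 and 26 for Smad3, so tags were higher on chromosome 1 over all 5 lists and not only in five-factor regions. Five-factor regions made up 2.01% of merged regions on chromosome 1, near the 2.03% over all autosomes.

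In 22 of the 662 five-factor regions, or 3.32%, 3 or more factors were in the top 10% of their list by tags and below its median fold. In 513 regions no factor was. The 119 regions with a five-factor neighbour within 25 kb had medians of 38 Smad3 tags (33 to 45) and 90 Tgif1 tags (82 to 104), and the 543 without one had 31 (29 to 32) and 76 (71 to 80). For Nanog the medians were 145 (126 to 182) and 133 (124 to 145), with overlapping intervals.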
